A study of Mus musculus with 18 samples.

Results

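The complement genes described here are C1qa, C1qb, C1qc, C4b, C3, Cfb, Cfp, C3ar1 and C5ar1. They were chosen by symbol, and all 9 were found among the 24485 genes quantified by RNA-seq in cultured macrophages. The cells were bone marrow-derived macrophages (BMDMs), grown from marrow with L929-conditioned medium. Every group, controls included, carried the same Il10-/- genotype on the C57BL/6J background, and no wild-type library was compared. The study's methods describe the donors as 12-week-old males. The 18 libraries formed 6 groups of 3 biological replicates. Unstimulated cells were untreated and received PBS, and 2 further groups without LPS were held for 12 hours with 500 nM (+)-JQ1 or with 10 ng/mL IL-10 before PBS. The other 3 groups had the same pretreatments (none, (+)-JQ1 or IL-10) and then 50 ng/mL LPS for 4 hours, so that all cells were collected at 16 hours. (+)-JQ1, called JQ1 from here on, is a small molecule that displaces the bromodomain and extra-terminal (BET) proteins from acetylated chromatin. LPS is the bacterial lipopolysaccharide that activates Toll-like receptor 4. The labels call the cells without pretreatment untreated, whereas the methods name a vehicle control, so a vehicle effect cannot be told apart from the JQ1 effect where the comparison group had none.

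Complement is a cascade of plasma proteins that tags microbes and debris for removal. In the classical pathway C1q, built from chains encoded by C1qa, C1qb and C1qc, binds its target and activates proteases that cleave C4 and C2. In the alternative pathway factor B (Cfb) joins C3b to form the enzyme that cleaves more C3, and properdin (Cfp) stabilises that enzyme. Fragments released from C3 and C5 act on macrophages through the receptors C3AR1 and C5AR1. Much of plasma complement comes from the liver, but macrophages are a well known source of C1q and properdin and make C3 and factor B locally.

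In build mm9 with the GENCODE M1 annotation, all 9 genes lay on the minus strand. C1qa (chr4:136451832-136454718), C1qc (chr4:136445719-136448980) and C1qb (chr4:136436044-136442102) were neighbours, with 2851 bases between C1qa and C1qc and 3616 bases between C1qc and C1qb. C4b (chr17:34865325-34880827) and Cfb (chr17:34993319-34999463) shared the major histocompatibility region with C4a, a near-identical copy of C4b, and with C2. The 3′ end of C2, also on the minus strand, lay 85 bases from the start of Cfb. C3 lay elsewhere on the same chromosome (chr17:57343397-57367559), Cfp at chrX:20502580-20508681, C3ar1 at chr6:122797156-122806179 and C5ar1 at chr7:16832092-16844889. The annotation also held a read-through gene model spanning Cfb and C2 on the same strand, which was no row of its own in the deposited tables.

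RefSeq promoters (build GRCm38.p6, 250 bases before to 50 after the annotated start) were found for C1qb, C1qc, C3, C3ar1, C5ar1 and Cfp, which are 6 of the 9 genes. The 250 bases before the start are printed for 4 of them. The choice follows the unequal behaviour of the neighbours C1qb and C1qc, the induction of C3 and the fall of C3ar1 with JQ1. The printed windows are chr4:136886201-136886450 for C1qb, chr4:136892915-136893164 for C1qc, chr17:57228137-57228386 for C3 and chr6:122856158-122856407 for C3ar1, each read 5′ to 3′ on the minus strand. Capitals mark matches, on either strand, to 7 motifs: the kappaB consensus, AP-1 (TGANTCA), the ISRE core (GAAANNGAA), GAS (TTCNNNGAA), PU.1 (GAGGAAGT), C/EBP (TTGCNNAAT) and MARE (TGCTGAC).
C1qb: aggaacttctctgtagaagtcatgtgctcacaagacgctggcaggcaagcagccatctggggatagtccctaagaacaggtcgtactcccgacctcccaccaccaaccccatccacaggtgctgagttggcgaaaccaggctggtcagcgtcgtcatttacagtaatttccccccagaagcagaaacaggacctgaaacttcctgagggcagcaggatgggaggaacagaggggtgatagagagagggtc
C1qc: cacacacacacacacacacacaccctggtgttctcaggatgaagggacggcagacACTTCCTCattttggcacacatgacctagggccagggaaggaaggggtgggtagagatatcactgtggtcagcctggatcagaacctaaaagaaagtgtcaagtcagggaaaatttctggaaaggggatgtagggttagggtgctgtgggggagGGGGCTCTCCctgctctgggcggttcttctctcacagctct
C3: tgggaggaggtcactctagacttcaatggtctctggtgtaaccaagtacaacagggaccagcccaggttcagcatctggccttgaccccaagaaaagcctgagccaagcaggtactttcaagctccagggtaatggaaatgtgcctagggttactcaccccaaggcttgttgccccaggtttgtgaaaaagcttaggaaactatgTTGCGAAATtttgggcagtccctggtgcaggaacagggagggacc
C3ar1: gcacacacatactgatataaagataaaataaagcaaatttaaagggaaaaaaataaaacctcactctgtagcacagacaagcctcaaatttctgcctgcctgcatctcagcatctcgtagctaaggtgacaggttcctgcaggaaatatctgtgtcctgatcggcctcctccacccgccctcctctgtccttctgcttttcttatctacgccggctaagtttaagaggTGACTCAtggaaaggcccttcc
The C1qc window held a PU.1 match from -195 to -188 and a kappaB match from -41 to -32, and its neighbour C1qb held no match to any of the 7 motifs. The C3 window held a C/EBP match from -45 to -37, and the C3ar1 window an AP-1 match from -22 to -16. Of the 2 windows not printed, C5ar1 had an ISRE core match from -66 to -58 and Cfp had no match. Among all 32851 promoters of the table, 8.46% held the kappaB consensus, 7.81% AP-1, 8.56% the ISRE core, 8.3% GAS, 3.2% PU.1, 2.4% C/EBP and 4.67% MARE. A match is a description of these letters, not evidence of binding.

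Totals of expected counts ran from 6781952 to 28289498 per library, and 3 counts were equal to between 0.106 and 0.442 CPM (counts scaled to the library total). Macrophage markers were abundant in every library, with a summed normalised count of 205147 to 268738 over 8 genes. Lyz2 was the largest part of this sum (103468 to 186927), which therefore hides changes of single markers. Cd68 ran from 11580 to 17534, but Itgam from 2177 to 18341 and Fcgr1 from 206 to 13176. Sums of the neutrophil (7 genes, 21.7 to 238), dendritic cell (5 genes, 5.19 to 104), B cell (4 genes, 1.05 to 39.3) and fibroblast (6 genes, 99.0 to 509) lists were far lower, and Ly6g was at 0 in all 18 libraries. T and NK cell, mast cell and erythroid lists stayed below 10. The endothelial list (3 genes) was 34.9 to 45.7 in unstimulated cells, 540 to 586 with LPS, 474 to 579 after IL-10 and LPS, and 2.21 to 9.85 after JQ1 and LPS, mostly through Kdr, and so moved with LPS and JQ1 much as Cfb did. Cdh5, which defines endothelium, was at 0 in 3 libraries and no higher than 27.4. The dendritic cell list was 8.46 to 16.2 in unstimulated, 83.8 to 104 in LPS and 27.1 to 34.2 in LPS + JQ1 libraries. The B cell list was 18.6 to 39.3 at rest and 1.73 to 4.58 after JQ1 alone, and 12.4 to 22.6 in LPS and 1.05 to 8.62 in LPS + JQ1 libraries. The part of these 3 lists in the results was not tested. Il10 itself ranged from 27.1 to 177 over the 18 libraries, which checks nothing about the deletion because counts are per gene and no wild-type cells were compared. Replicate 1 of the unstimulated cells stood apart from the other 2 in C3 and Cfb, and results that rest on it are given with and without it.

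Levels between genes were compared as TPM, the transcript abundance after correction for gene length and library total. At rest C1qb (3144 ± 276 TPM, SD, n = 3) and C1qc (3121 ± 312) were the highest of the 9, and their values did not differ beyond their spread. C1qa followed at 1507 ± 352 TPM, then C3ar1 at 489 ± 25.3, and Cfp (240 ± 16.8) and C5ar1 (238 ± 22.8), which again did not differ beyond their spread. C3 (25.0 ± 26.1 TPM), Cfb (3.87 ± 5.84) and C4b (0.150 ± 0.149) were low. With LPS, C3 reached 544 ± 12.1 TPM and passed both receptors and Cfp, and with LPS + JQ1 it reached 1001 ± 76.6 TPM, below only the C1q chains. Together the 9 genes took 0.637% ± 0.0556 of all counts at rest and 0.612% ± 0.0364 with LPS, while the share of C3 alone went from 0.00800% ± 0.00829 to 0.158% ± 0.0125.

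**Figure D1:**
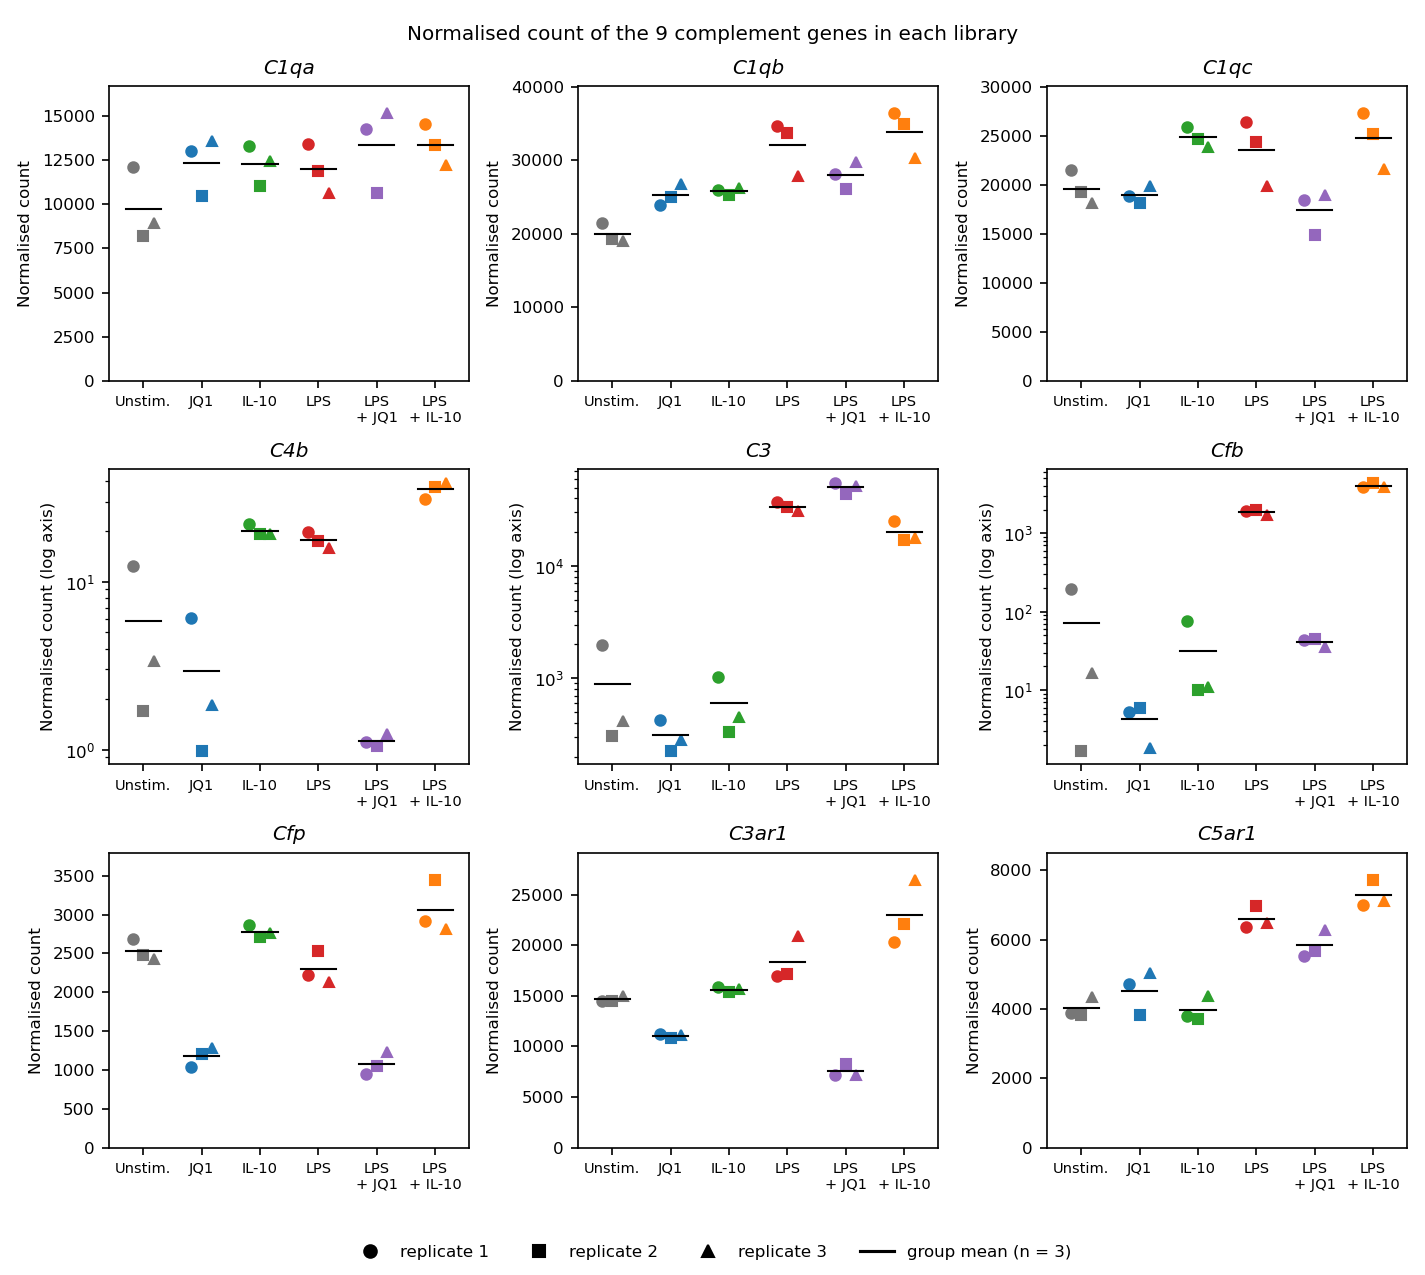
Normalised count (count divided by the size factor of its library) of each complement gene in each of the 18 libraries, by group, with symbols for the replicate and a line for the mean of 3. C4b, C3 and Cfb have log axes. With LPS + JQ1, C3 lies above every LPS library (43775 to 55172 against 30700.4 to 36957) while Cfb lies far below (35.7 to 44.2 against 1709 to 1959).

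Groups were compared with the DESeq2 Wald test over all genes, and a gene was called at a Benjamini-Hochberg adjusted p under 0.05. Against unstimulated cells, LPS raised 6 of the 8 complement genes that received an adjusted p (C1qb, C1qc, C4b, C3, C3ar1, C5ar1) and lowered none, where 64.5% of all genes tested were called. Of these 6, C1qb, C1qc, C3ar1 and C5ar1 turned negative when scaled to the library total, as described below. JQ1 without LPS raised C1qb and lowered C3, Cfp and C3ar1 (4 of 8, background 45.7%). IL-10 without LPS raised C1qb and C4b (2 of 8, background 2.81%). Among cells given LPS, JQ1 lowered C1qc, C4b, Cfp and C3ar1 (4 of 8, background 57.3%) and IL-10 raised Cfp and C3ar1 (2 of 8, background 17.2%). LPS + JQ1 differed from LPS + IL-10 in 6 of 8, all lower (background 55.3%), and from unstimulated cells in 7 of 8, of which 4 were higher and 3 lower (background 62.4%). By total count and on the TPM scale, in that order, these splits were 0 higher and 3 lower under both for JQ1 at rest, 1 higher with 3 or 4 lower for JQ1 during LPS, 1 higher with 3 or 5 lower for LPS + JQ1 against LPS + IL-10, and 1 higher with 4 or 3 lower for LPS + JQ1 against unstimulated cells. The median log2 fold change of the 8 genes was 0.51 for LPS and -0.32 for LPS + JQ1 against LPS, against -0.07 and -0.11 over all genes tested. These shares are read only against the background, and the values of the single genes follow. The comparisons with unstimulated cells share those 3 libraries, and each pair of the 3 comparisons among LPS-treated cells shares 1 group.

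**Figure D2:**
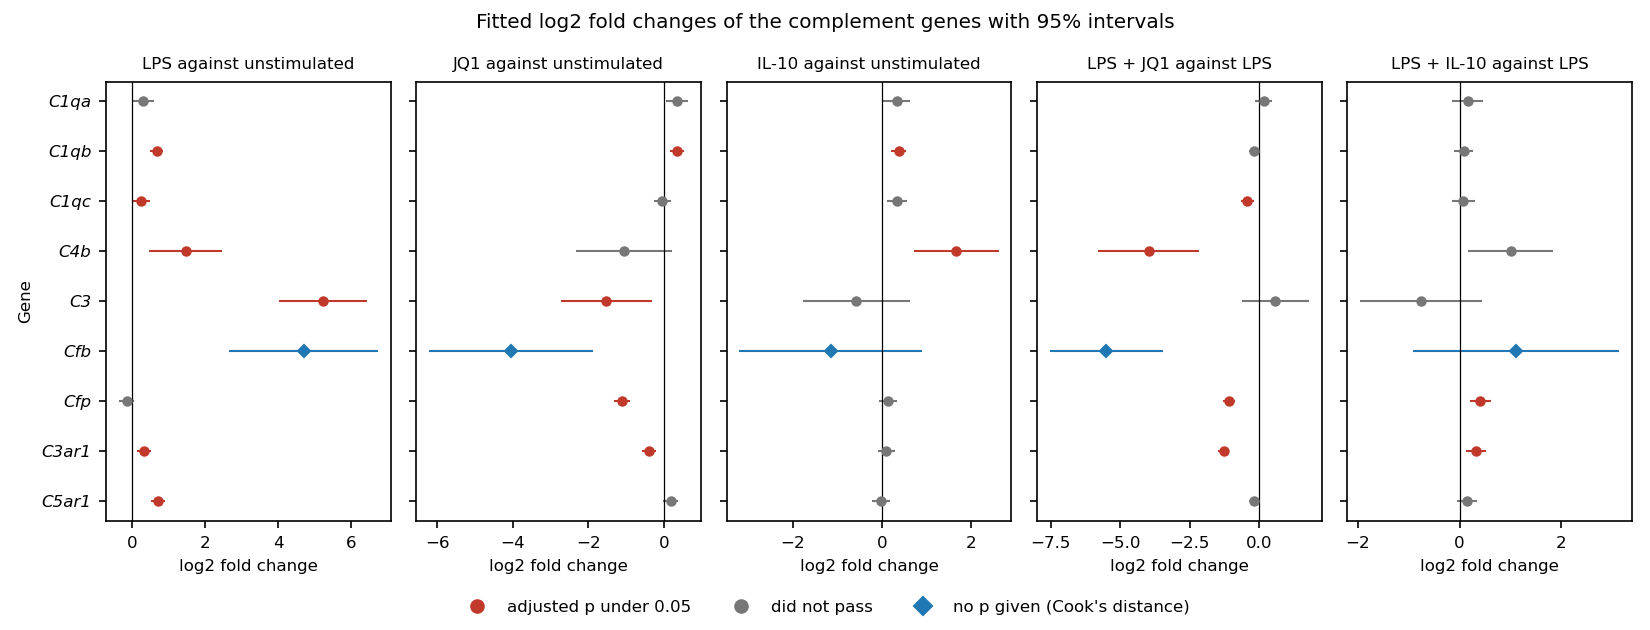
Log2 fold change of each complement gene in 5 comparisons, with 95% intervals from the DESeq2 standard error. Red points passed an adjusted p under 0.05, grey did not, and blue diamonds (Cfb) had no p in that test. C3 and C4b are the members that moved furthest with LPS among those tested, and C4b, C3ar1, Cfp and C1qc fell with JQ1 during LPS.

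Cfb had no p in the main test, because its count in unstimulated replicate 1 exceeded the Cook's distance limit of DESeq2. For this gene the p values below come from the same fit without that limit, an alternative chosen after seeing the data. C4b had an adjusted p in all comparisons except the interaction of LPS with IL-10.

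The direction of small LPS effects depended on the scaling. The median of ratios used by DESeq2 placed the median expressed gene at -0.07 (log2) with LPS, TMM factors at -0.14, scaling to the total count at -0.997 and the TPM scale at -0.63. C1qa, C1qb, C1qc, C3ar1 and C5ar1 were higher with LPS under the first 2 scalings and lower under the last 2. Members called with LPS were 6 higher and 0 lower in the main test, 1 higher and 5 lower by total count (6 called), and 2 higher and 4 lower on the TPM scale (6 called). Relative to the median gene, these 5 genes were above it under each of the 4 scalings, by 0.11 to 0.79. In what follows an LPS effect on any of these 5 genes is a rise relative to most genes, and not a rise in its share of the library.

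**Figure D3:**
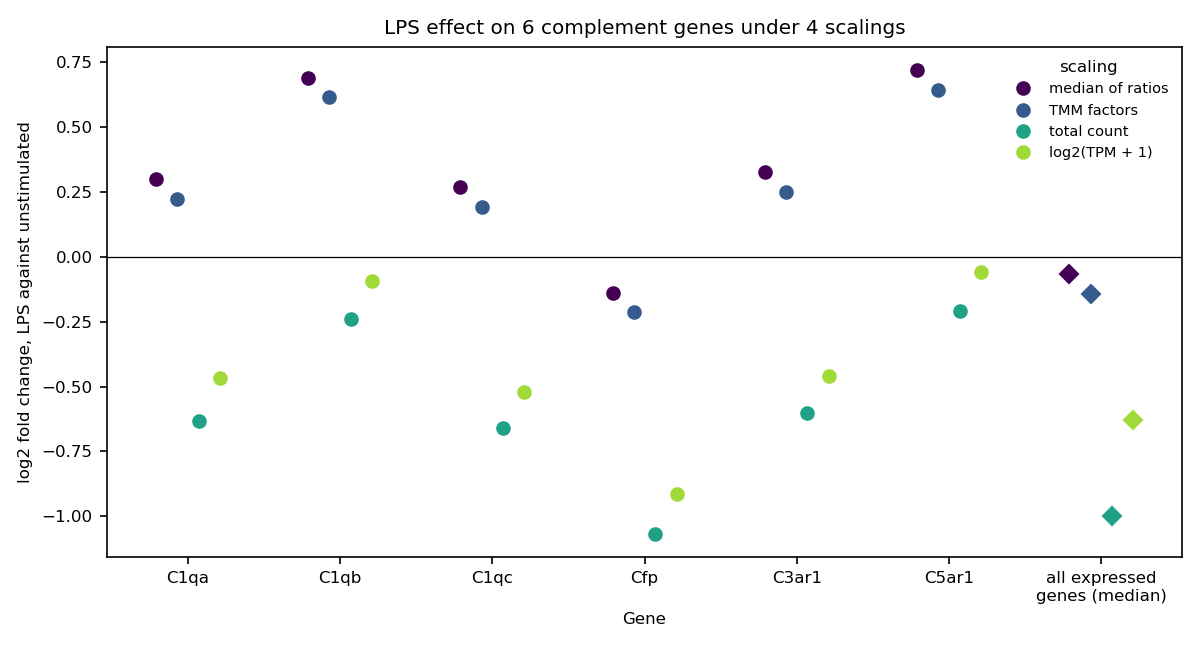
Log2 fold change with LPS of 6 complement genes under 4 scalings, with the median over all expressed genes as diamonds. The 2 scalings to the library total place C1qa, C1qb, C1qc, C3ar1 and C5ar1 below 0 and the other 2 place them above, while each of these 5 stays above the median gene of its own scaling.

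The C1q chains form 1 protein, and their genes were expressed at high levels in every group. Unstimulated libraries held normalised counts of 21493, 19313 and 18964 for C1qb, JQ1 libraries 23920.1, 25008 and 26799.9, and IL-10 libraries 25932, 25226 and 26177. LPS libraries held 34612, 33761 and 27909.7, LPS + JQ1 libraries 28077, 26146 and 29792, and LPS + IL-10 libraries 36451, 34941 and 30264. Every treated library thus lay above every unstimulated one, whereas the 3 LPS groups overlapped each other, except that LPS + JQ1 lay wholly below LPS + IL-10. C1qb rose with LPS by 0.69 ± 0.09 (log2, SE, adjusted p = 1.35e-13, and -0.24 by total count), with JQ1 by 0.34 ± 0.09 (adjusted p = 0.000634) and with IL-10 by 0.37 ± 0.09 (adjusted p = 0.00346). Its JQ1 rise missed the threshold when scaled to the total count or on the TPM scale. Against LPS alone, LPS + JQ1 gave -0.20 ± 0.09 (adjusted p = 0.0529), but 0.18 by total count and 0.11 on the TPM scale. Against LPS + IL-10, LPS + JQ1 was lower by -0.27 ± 0.09 (adjusted p = 0.00547). This did not pass with TMM factors (-0.17), edgeR (-0.18), the TPM scale (-0.08), only those groups (-0.20) or total counts (0.0073).

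The C1qc counts were 21489.5, 19240.0 and 18139 at rest, 18882, 18192 and 19852 after JQ1 alone, and 25962, 24718 and 23924 after IL-10 alone. During LPS they were 26489.9, 24421 and 19895 without pretreatment, 18463, 14862 and 18956 after JQ1, and 27384, 25262 and 21684 after IL-10. The JQ1 libraries overlapped the unstimulated ones, and the LPS + JQ1 libraries lay below all LPS and all LPS + IL-10 libraries. C1qc rose with LPS by 0.27 ± 0.12 (adjusted p = 0.0337, and -0.66 by total count), a call lost in 4 of the 6 fits that left out 1 of these libraries (unstimulated replicate 2 or 3, or LPS replicate 1 or 2, 0.18 to 0.25) and with TMM factors (0.19). It fell with JQ1 during LPS by 0.44 on the log2 scale (SE 0.12, adjusted p = 0.000384), and the effect was -0.06 when scaled to the total count and -0.14 on the TPM scale. With IL-10 at rest it was higher in 3 of 3 replicate pairs (0.34 ± 0.12, adjusted p = 0.0905, or 0.0244 with a replicate block).

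C1qa counted 12109, 8237 and 8931 in unstimulated cells, and its group means ran from 9759 ± 2065 (unstimulated) to 13398 ± 1163 (LPS + IL-10). The ranges of every pair of neighbouring groups in this order overlapped. Its differences from unstimulated cells were 0.30 ± 0.15 with LPS (adjusted p = 0.0782), 0.34 ± 0.15 with JQ1 (adjusted p = 0.0551) and 0.33 ± 0.15 with IL-10 (adjusted p = 0.409). The replicate block gave adjusted p values of 0.0131 for LPS and 0.00752 for JQ1. Without unstimulated replicate 1 the differences were 0.48, 0.53 and 0.52 and passed. LPS gave -0.63 in DESeq2 by total count (adjusted p = 6.5e-05) and -0.47 in limma on the TPM scale (adjusted p = 0.0104). JQ1 during LPS gave 0.16 in the main test, 0.53 by total count and 0.45 on the TPM scale. In the main test C1qa was called only for LPS + JQ1 against unstimulated cells (0.45 ± 0.15, adjusted p = 0.00575), where scaling to the total count gave -0.10. That call was lost without unstimulated replicate 2 (0.35) or LPS + JQ1 replicate 3 (0.36), and in the fit on only those groups (0.47, adjusted p = 0.0674).

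The ratio of 2 chains within a library does not depend on its scaling. On the TPM scale the ratio of C1qc to C1qb was 1.01, 1.004 and 0.964 in the unstimulated libraries and 1.01, 0.988 and 0.921 in the IL-10 libraries. JQ1 libraries had 0.796, 0.733 and 0.747, LPS libraries 0.772, 0.729 and 0.719, and LPS + IL-10 libraries 0.757, 0.729 and 0.722. It was lowest in the LPS + JQ1 libraries, at 0.663, 0.573 and 0.641. The chains were thus near equal at rest, C1qc was below C1qb in every library given JQ1 or LPS, and libraries given both lay below those given either. The ratio was 1.34-fold lower with LPS and 1.31-fold lower with JQ1 than in unstimulated cells, and 1.18-fold lower with LPS + JQ1 than with LPS. Each of these had an exact two-sided permutation p = 0.1, the smallest that 3 against 3 allows, and an adjusted p = 0.156 over 14 such ratio tests. The IL-10 libraries overlapped their controls, being 1.02-fold lower at rest (exact permutation p = 0.7) and 1.00-fold lower during LPS (exact permutation p = 0.8).

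**Figure D4:**
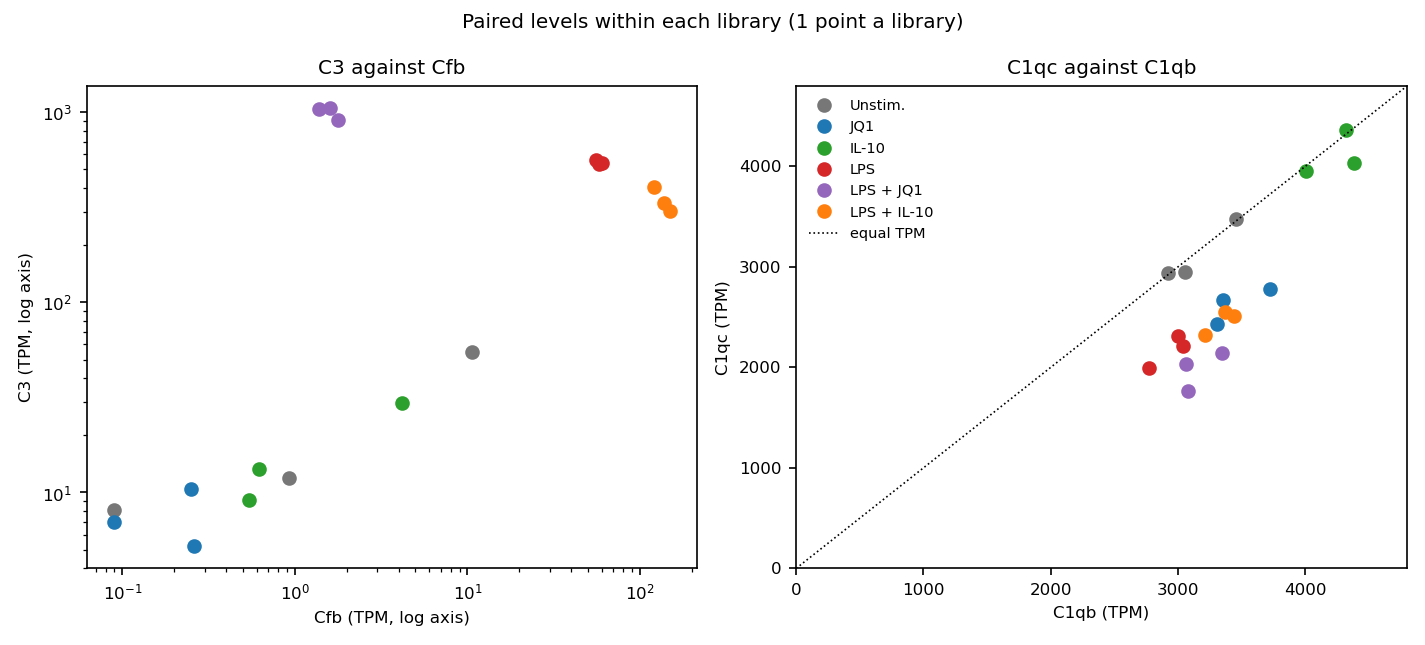
Level of C3 against Cfb (left, log axes) and of C1qc against C1qb (right, linear axes, dotted line at equal TPM), 1 point for each of the 18 libraries, in TPM. The 3 LPS + JQ1 libraries sit at high C3 with low Cfb, and libraries given JQ1 or LPS sit below the line of equal C1qc and C1qb.

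C4b encodes complement C4, the substrate of the C1 proteases, and was barely expressed. Replicates of the unstimulated group had C4b counts of 12.3, 1.69 and 3.35, those of the JQ1 group 6.05, 0.986 and 1.83, and those of the IL-10 group 22.0, 19.2 and 19.1. The LPS group had 19.8, 17.6 and 16.0, the LPS + JQ1 group 1.104, 1.05 and 1.23, and the LPS + IL-10 group 31.1, 36.5 and 38.8. IL-10 and LPS libraries all lay above the unstimulated ones, LPS + IL-10 lay above both, and each LPS + JQ1 library rested on a single rounded count. C4b rose with LPS by 1.48 ± 0.51 (log2, adjusted p = 0.00640) and with IL-10 by 1.67 ± 0.48 (adjusted p = 0.0249). The first call was lost by total count (0.55, adjusted p = 0.341), on the TPM scale (0.15, adjusted p = 0.0904) and without unstimulated replicate 3 (1.08, adjusted p = 0.0792), and every fit without 1 of the 6 libraries of the second lost the call or gave no adjusted p, with differences of 1.28 to 2.84. With C4a and C4b summed, the IL-10 rise was 1.38 (adjusted p = 0.0205). LPS + JQ1 held 3 rounded counts against 44 with LPS, a ratio 15.7-fold lower after scaling (95% exact counting interval 5.04 to 79.1), and the Wald test gave an adjusted p = 4.54e-05. LPS + IL-10 was higher than LPS by 1.00 ± 0.43, which did not pass (adjusted p = 0.0890).

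Because reads that match C4a and C4b equally are divided between them, both were also summed, an alternative chosen after seeing the data. C4a counted 7.73, 6.32 and 8.62 in LPS + JQ1 libraries, above its 4.24, 4.14 and 3.68 in LPS libraries. The sum of both was 21.8 ± 2.20 in the LPS libraries, 8.68 ± 1.24 after JQ1 and 39.9 ± 6.48 after IL-10. The sum fell with JQ1 during LPS by 1.33 on the log2 scale (SE 0.44, adjusted p = 0.00552), a far smaller difference than for C4b alone. Against unstimulated cells the sum with LPS + JQ1 gave -0.10 (adjusted p = 0.864), where C4b alone had been called lower (-2.50, adjusted p = 0.0151, and adjusted p = 0.283 without unstimulated replicate 1).

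C3, the central component on which all pathways converge, was low without LPS and high with it. In cells without LPS, C3 was counted at 1966, 304 and 418 when untreated, 427, 226 and 283 after JQ1 and 1028, 329.6 and 449 after IL-10. In cells given LPS the counts were 36957, 33628 and 30700.4 when not pretreated, 55172, 43775 and 51858 after JQ1 and 25024, 17223 and 17850.1 after IL-10. The 3 LPS groups did not overlap one another or any group without LPS, and JQ1 gave the highest values of all. Replicate 1 was the highest library in each of the 6 groups. C3 rose with LPS by 5.23 ± 0.61 (log2, 37.6-fold, adjusted p = 6.18e-17), and by 6.54 without unstimulated replicate 1. The combined effect of both treatments, LPS + JQ1 against unstimulated cells, was 5.81 ± 0.61 (56.1-fold, adjusted p = 1.78e-20), and 7.12 without that replicate. It is not the LPS response of JQ1-pretreated cells, which would be measured against JQ1 alone.

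The differences of C3 among the LPS groups were not called in the fit over all 18 libraries, in which the spread of this gene is estimated from all groups, the uneven unstimulated group included. LPS + JQ1 against LPS gave 0.57 ± 0.61 (adjusted p = 0.445), with ratios of 1.49, 1.30 and 1.69 in the 3 replicate pairs. LPS + IL-10 against LPS gave -0.75 ± 0.61 (adjusted p = 0.496), with ratios of 0.677, 0.512 and 0.581. All 3 pairs were thus higher with JQ1 and all 3 lower with IL-10. Fitted on only the 6 libraries compared, the same differences were 0.67 ± 0.11 (adjusted p = 4.61e-09) and -0.74 ± 0.15 (adjusted p = 5.25e-05). LPS + JQ1 exceeded LPS + IL-10 by 1.33 ± 0.61 (adjusted p = 0.0546, or 0.00255 with the replicate block), with pair ratios of 2.20, 2.54 and 2.91. At rest C3 fell with JQ1 by 1.52 on the log2 scale (SE 0.62, adjusted p = 0.0313), but this rested on unstimulated replicate 1, and without it the difference was -0.21 (adjusted p = 0.748). It was also lost without JQ1 replicate 2 (-1.33, adjusted p = 0.114) or JQ1 replicate 3 (-1.45, adjusted p = 0.0905).

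Cfb encodes factor B, which pairs with C3b in the alternative pathway. Normalised Cfb counts without LPS were 195, 1.69 and 16.8 (unstimulated), 5.19, 5.91 and 1.83 (JQ1) and 75.0, 9.99 and 10.8 (IL-10). Those with LPS were 1904, 1959 and 1709 (no pretreatment), 43.1, 44.2 and 35.7 (JQ1) and 3832, 4382 and 3840.0 (IL-10). The LPS libraries lay above all libraries without LPS, and the LPS + IL-10 libraries lay above those with LPS. The LPS + JQ1 libraries fell within the range of the unstimulated ones only through unstimulated replicate 1. They lay above every library given JQ1 alone. Without the Cook's distance limit, Cfb rose with LPS by 4.70 ± 1.04 (log2, 26.0-fold, adjusted p = 1.26e-05), and by 7.52 without unstimulated replicate 1. It fell with JQ1 during LPS by 5.50 on the log2 scale (SE 1.04, 45.3-fold, adjusted p = 4.18e-07). LPS + IL-10 against LPS gave 1.11 ± 1.03 (2.16-fold, adjusted p = 0.568), and the fit on only those 6 libraries gave 1.12 ± 0.12 (adjusted p = 5.20e-19). The resting JQ1 difference, -4.05 ± 1.104 (adjusted p = 0.000854), was -1.23 without unstimulated replicate 1 and then did not pass (adjusted p = 0.293). LPS + JQ1 against unstimulated cells gave -0.80 (adjusted p = 0.530), but 2.03 without that replicate, which passed (adjusted p = 0.0252).

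C3 and Cfb, both low at rest and both high with LPS, lay far apart with LPS + JQ1. On the TPM scale the LPS libraries had C3 to Cfb ratios of 10.01, 8.88 and 9.28, the LPS + JQ1 libraries 662, 513 and 752, and the LPS + IL-10 libraries 3.37, 2.04 and 2.40. The 3 groups did not overlap. The ratio was 67.6-fold higher with LPS + JQ1 and 3.69-fold lower with LPS + IL-10 than with LPS (exact two-sided permutation p = 0.1 for each, the smallest possible, and adjusted p = 0.156 over the 14 ratio tests). It ran from 5.19 to 90 in unstimulated cells, where Cfb rested on few counts.

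Cfp encodes properdin, the stabiliser of the alternative pathway enzyme, and was lower in both JQ1 groups. The Cfp counts were 2687, 2481 and 2422 at rest, 1035, 1205 and 1283 after JQ1 alone, and 2864, 2714 and 2765 after IL-10 alone. During LPS they were 2221, 2535 and 2135 without pretreatment, 949, 1046 and 1236 after JQ1, and 2916, 3449 and 2810.3 after IL-10. Every JQ1 library lay below every library without JQ1. The neutrophil marker list was likewise lower with JQ1, at 62.6 to 209 in unstimulated and 21.7 to 56.8 in JQ1 libraries, and at 147 to 187 in LPS and 55.2 to 130.5 in LPS + JQ1 libraries, and its part in the result was not tested. Cfp fell with JQ1 by 1.11 on the log2 scale at rest (SE 0.11, 2.16-fold, adjusted p = 4.79e-23) and by 1.09 during LPS (SE 0.11, 2.14-fold, adjusted p = 1.58e-22). The difference between these effects was 0.01 ± 0.15 (95% interval -0.29 to 0.32, adjusted p = 0.959), although scaling to the total count gave 0.57 and the TPM scale 0.52, both of which passed. LPS gave -0.14 ± 0.11 (adjusted p = 0.260), and -1.07 when scaled to the total count, which is close to the median gene under that scaling. IL-10 raised Cfp during LPS by 0.41 ± 0.11 (adjusted p = 0.00148), and gave 0.14 ± 0.11 at rest (adjusted p = 0.916).

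C3ar1 encodes the receptor for the C3a fragment. Replicates of the unstimulated group had C3ar1 counts of 14455, 14464 and 14994, those of the JQ1 group 11176, 10848 and 11143, and those of the IL-10 group 15881, 15333 and 15622. The LPS group had 16986, 17120.5 and 20876, the LPS + JQ1 group 7166, 8292 and 7168, and the LPS + IL-10 group 20326, 22052 and 26481. In these counts the order from LPS + IL-10 downward was LPS, IL-10, unstimulated, JQ1 and LPS + JQ1, and only LPS + IL-10 and LPS overlapped as neighbours. In TPM the order differed, with IL-10 at 541 ± 25.1, unstimulated at 489 ± 25.3, LPS + IL-10 at 486 ± 99.5 and LPS at 359 ± 70.3. JQ1 (320 ± 16.2 TPM) then overlapped LPS, and LPS + JQ1 (182 ± 23.2 TPM) stayed lowest. C3ar1 rose with LPS by 0.32 ± 0.10 (adjusted p = 0.00144, and -0.60 by total count) and fell with JQ1 by 0.40 on the log2 scale at rest (SE 0.10, adjusted p = 0.000112) and by 1.28 during LPS (SE 0.10, 2.43-fold, adjusted p = 7.03e-39). IL-10 raised it during LPS by 0.32 ± 0.10 (adjusted p = 0.00643). That call was lost without LPS replicate 1 (0.27), LPS replicate 2 (0.28) or LPS + IL-10 replicate 3 (0.21), and in the fit on only those 6 libraries (0.34, adjusted p = 0.116).

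C5ar1 encodes the main receptor for the C5a fragment. In cells without LPS, C5ar1 was counted at 3876, 3839 and 4338 when untreated, 4721, 3823 and 5054 after JQ1 and 3806, 3703 and 4375 after IL-10. In cells given LPS the counts were 6365, 6975 and 6476 when not pretreated, 5541, 5686 and 6294 after JQ1 and 7007, 7736 and 7105 after IL-10. The 3 groups without LPS overlapped, and all libraries with LPS lay above them. C5ar1 rose with LPS by 0.72 ± 0.10 (log2, adjusted p = 1.69e-12, and -0.21 by total count). It was higher with LPS + JQ1 than in unstimulated cells by 0.54 ± 0.10 (adjusted p = 1.66e-07), but by -0.013 by total count and 0.080 on the TPM scale. JQ1 during LPS gave -0.18 ± 0.10 (95% interval -0.37 to 0.02, adjusted p = 0.114), but 0.20 by total count and 0.14 on the TPM scale. LPS + JQ1 was lower than LPS + IL-10 by -0.32 ± 0.10 (adjusted p = 0.00297), which did not pass with TMM factors (-0.22), total counts (-0.04) or on the TPM scale (-0.11). Side by side, the 95% interval of the JQ1 effect during LPS by the median of ratios was -1.47 to -1.09 for C3ar1 and -0.37 to 0.02 for C5ar1. By total count the effects were -0.91 and 0.20. In bulk RNA, fewer cells that express a gene and less RNA per cell cannot be told apart.

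Whether JQ1 acted differently with and without LPS was tested as an interaction, which was called for 6 of 8 complement genes (5 negative, 1 positive, background 41.5%). By total count 2 were positive and 0 negative, so none of the 5 negative calls held. On the TPM scale, where Cfb was tested too (-3.24), 2 were positive and 1 negative. Under both, the positives included Cfp (0.57 and 0.52), which was not called in the main test. Cfb, without a p in the main test, gave -1.45 ± 1.52, and -4.27 to -0.87 in fits that left out 1 library. Where those fits gave an adjusted p for Cfb, it ran from 0.000763 to 0.663, so whether it passed depended on the library left out. The JQ1 effect on C3ar1 was lower with LPS by -0.88 ± 0.14 (adjusted p = 1.53e-09), and on C1qb by -0.54 ± 0.13 (adjusted p = 0.000139). Scaling to the total count gave -0.32 and 0.015 for these genes, neither of which passed, and 0.16 for C1qc and 0.20 for C5ar1. Both calls held in all 12 fits that left out 1 library of these groups. The calls of C1qc and C5ar1 were each lost in 7 of those fits, C4b in 6 and C3 in 9, and the count of calls ran from 2 to 5. For the interaction of LPS with IL-10 DESeq2 called 0 of 7 complement genes (background 7.44%), with 1 at an unadjusted p under 0.05 (C1qb), and edgeR and limma also called 0 of 9.

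Beyond the 9, a wider list of 45 complement pathway genes (proteases, lectins, terminal components, receptors and regulators) was found complete in the files. Mean normalised counts reached 10 for 13 of them, and 13 had no count in any library, among them Mbl1, Hc (which encodes C5), C6 and C7. LPS raised 7 of the 25 that received an adjusted p and lowered 3 (40% called, background 64.5%), with a median log2 fold change of 0.20 against -0.07 over all genes. C1ra, a C1 protease gene, rose from 27.9 ± 5.57 to 122 ± 19.3 (2.19 ± 0.24, adjusted p = 1.09e-19), and Cr1l, which encodes the cell-surface regulator Crry, from 527 ± 12.2 to 1155 ± 92.3. Serping1 (C1 inhibitor) and Itgax (a chain of complement receptor 4) also rose, the last only by the median of ratios and TMM, with -0.51 by total count. C1s1, C2 and Cd55, each with a mean below 10, were the other genes called higher. C5ar2, the second receptor for C5a, fell from 373 ± 37.5 to 39.9 ± 9.14 (adjusted p = 5.66e-56), opposite in sign to C5ar1 by the median of ratios but not by total count, and Cd93 and C1qbp also fell. By total count 4 of 14 called genes were higher and 10 lower.

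With JQ1 at rest 8 genes of the list were called lower and 1 higher of 23 (39.1% called, background 45.7%). During LPS 12 were lower and 0 higher of 23 (52.2%, background 57.3%), with a median of -0.96 against -0.11 over all genes. Both shares were below those of all genes tested, but the 23 genes included some with a mean below 10. All genes called at rest were among the 13 with a mean of at least 10. So were all those called during LPS except C1s1 and C2. Cd93 went from 4305 ± 524 to 301 ± 34.5 with JQ1 at rest, and from 2337 ± 352 with LPS to 167 ± 35.0 with LPS + JQ1 (-3.81 ± 0.16, adjusted p = 7.69e-127). Itgam, a chain of complement receptor 3 and itself a macrophage marker, went from 10999 ± 393 with LPS to 2279 ± 91.2 with LPS + JQ1, and Itgb2, its partner, from 10887 ± 881 to 5755 ± 84.5. C1ra went from 122 ± 19.3 to 18.9 ± 3.35, and C5ar2 from 39.9 ± 9.14 to 6.81 ± 2.36. C1rl rested on 1 count with LPS + JQ1 against 34 with LPS, a ratio 36.4-fold lower (95% exact counting interval 6.11 to 1481). Itgax, Cr1l, Serping1, Vsig4, C1s1 and C2 completed the genes that fell during LPS, and Fcna, C1qbp and Cd59a were among those that did not pass. Serping1 was the gene that rose with JQ1 at rest, from 6.24 ± 1.02 to 16.0 ± 5.28 (adjusted p = 0.0327). No gene of the list was called higher by total count, on the TPM scale, with only the groups compared, or without unstimulated replicate 1, 2 or 3 or JQ1 replicate 3.

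IL-10 raised Itgam both at rest (1 of 19 called, or 5.26%, background 2.81%) and during LPS, where C1ra also rose and Itgax and Cr1l fell (4 of 13, or 30.8%, background 17.2%). By total count and on the TPM scale 2 genes were called higher during LPS and 0 lower. Itgam went from 10137 ± 813 to 13887 ± 542 at rest (0.45 ± 0.06, adjusted p = 2.72e-10) and from 10999 ± 393 to 17905 ± 673 during LPS (0.70 ± 0.06, adjusted p = 1.81e-26). C1ra reached 218, 214 and 215 in the LPS + IL-10 libraries, all above the LPS range of 103 to 142. LPS + JQ1 differed from LPS + IL-10 in 13 of 23 genes, 12 of them lower (56.5% called, background 55.3%), and from unstimulated cells in 10 of 25, 9 of them lower (40%, background 62.4%).

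**Figure D5:**
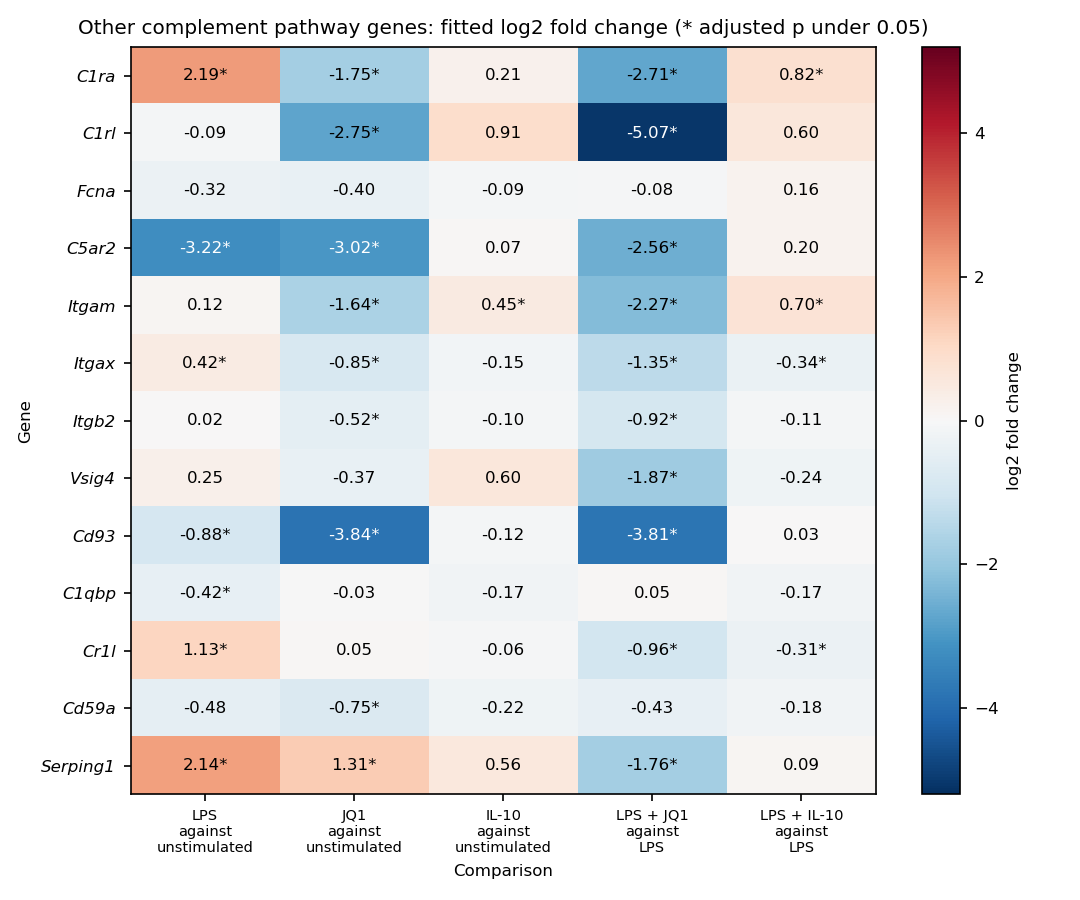
Log2 fold change of the 13 pathway genes whose mean normalised count reached 10, in 5 comparisons, with an asterisk where the adjusted p was under 0.05. Blue is lower and red higher in the first-named group. The JQ1 columns are blue for most genes (Cd93 -3.84 and -3.81, C5ar2 -3.02 and -2.56), while the C1rl value during LPS rests on 1 count.

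The genes whose pattern over the 18 libraries was most like that of each complement gene were taken as the 3 with the highest Pearson r of log2(normalised count + 1), among the 8377 other genes with a mean of at least 100 (8378 for C4b, itself below that mean). Libraries share their treatment, so these values are a description. For C3 they were Atp2b4, Ccl5 and Gbp2 (r = 0.988 each), and for Cfb Fpr2 (0.973), Rasgrp1 (0.972) and Ptges (0.972). For Cfp they were Itgam (0.979), Siglec1 (0.978) and Unc13d (0.975), for C3ar1 Smim3 (0.973), Acp2 (0.972) and Plekhg1 (0.969), and for C5ar1 Cfl1 (0.977), Nploc4 (0.970) and Pomp (0.968). C4b was nearest to Hsp90b1 (0.932), Sbno2 (0.927) and Tmem176a (0.921). No other C1q chain was among the 3 nearest genes of any chain. C1qb was nearest to Atp2a2 (0.923), Necap2 (0.923) and Cebpd (0.904), C1qc to Rnpep (0.874), Ltbr (0.853) and Zfp384 (0.849), and C1qa to Calr (0.776), D11Wsu47e (0.741) and Nfil3 (0.713). The chains had r = 0.699 (C1qa and C1qb), 0.539 (C1qb and C1qc) and 0.403 (C1qa and C1qc) with each other.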

How the data were processed

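RNA from the 18 libraries had been sequenced by the authors after ribosomal depletion, aligned to mm9 with STAR and quantified with RSEM 1.2.31 (submitters' processing notes). The deposited expected counts divide reads among similar genes and were not whole for 5.40% to 6.63% of genes, so they were rounded. TPM was deposited too, scaled by the authors for length and library, and the effective lengths deposited with them (in bases, another column of the authors) served an offset. Counts were fitted over all libraries and genes with group as the term in DESeq2 1.42.0 (R 4.3.3), with Wald tests, median-of-ratios factors and Benjamini-Hochberg adjustment. edgeR 4.0.16, limma 3.58.1 on log2(TPM + 1), other scalings, a filter of 10 counts in 3 libraries, a lane term, a replicate block and leaving out each library were alternatives. The DESeq2, edgeR and limma fits of LPS against unstimulated cells were tested on simulated counts, as was the DESeq2 interaction of LPS with JQ1. The simulated counts held no shift of most genes between groups, so they do not test the choice of scaling. The labels call the samples biologically matched (3 mice), so replicate numbers pair them, although same-number deviations correlated only at -0.0937 to 0.381. Replicates differed beyond sampling noise (chi-square per degree of freedom 3.99 to 27.4). Exact counting intervals cover counting error only, and the other intervals come from the DESeq2 standard error. The 9 genes and all lists were chosen with earlier results of these data known. One gene of the pathway list is not reported here and is left out of its counts. Named were the 9 genes, pathway genes with a mean of at least 10 (lower ones as low), and the 3 most similar genes of each.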

Additional observations from a re-analysis of the deposited data

Results flagged for a closer look

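The effect of JQ1 differed between cells with and without LPS, by the DESeq2 interaction term, for 6 of the 8 complement genes with an adjusted p and for 5 of 19 genes of the wider list (26.3%), against 41.5% of all genes tested. The interaction (log2, effect of JQ1 with LPS minus that without) was -0.88 for C3ar1, -0.54 for C1qb, -0.39 for C1qc, -0.35 for C5ar1, -2.91 for C4b and 2.10 for C3. The C3 value was 0.79 and did not pass without unstimulated replicate 1 (adjusted p = 0.294), and the C4b value was -0.73 with C4a and C4b summed (adjusted p = 0.401). In the wider list it was -0.63 for Itgam, -0.50 for Itgax, -0.40 for Itgb2, -1.01 for Cr1l and -3.08 for Serping1. By total count and on the TPM scale, in that order, it turned positive for Itgax (0.057 and 0.0083) and Itgb2 (0.16 and 0.12), and was -0.082 and -0.12 for Itgam, -0.46 and -0.50 for Cr1l and -2.52 and -1.17 for Serping1. Called genes of that list were then 4 positive and 3 negative by total count and 5 positive and 4 negative on the TPM scale. Among the 9 complement genes, the interaction by total count was -0.32 for C3ar1, 0.015 for C1qb, 0.16 for C1qc and 0.20 for C5ar1, and no negative call held. Leaving out 1 library gave 2 to 5 calls among them. Relative to the median interaction of all expressed genes, C3ar1 was at -0.83, C1qb at -0.49, C1qc at -0.34 and C5ar1 at -0.30 by the median of ratios, and at -0.72, -0.39, -0.25 and -0.19 on the TPM scale. The cause of these differences was not tested.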

How the results depend on the processing

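Of 1413 refitted fold changes of the 9 genes, 1255 kept their side of the threshold, 85 dropped below it, 41 rose above it and 11 without a p moved by more than 1 SE. A further 21 changed direction and had passed in the main test or passed in the refit. Of these last, 20 were scalings to the library total. Other sign changes were not counted among the 21, such as C1qb (-0.20, and 0.18 by total count) and C5ar1 (-0.18 and 0.20) for LPS + JQ1 against LPS. By total count and on the TPM scale, in that order, LPS gave -0.63 and -0.47 for C1qa, -0.24 and -0.10 for C1qb, -0.66 and -0.52 for C1qc, -0.60 and -0.46 for C3ar1, and -0.21 and -0.059 for C5ar1. LPS + JQ1 against unstimulated cells gave -0.10 and -0.021 for C1qa and, by total count, -0.060 for C1qb and -0.013 for C5ar1. The LPS with JQ1 interaction gave 0.16 and 0.11 for C1qc, 0.20 and 0.16 for C5ar1 and, by total count, 0.015 for C1qb. LPS + JQ1 against LPS + IL-10 gave 0.0073 for C1qb by total count. For LPS + JQ1 against unstimulated cells, leaving out 1 library gave -1.37 to 2.03 for Cfb, the highest without unstimulated replicate 1.

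Called members by interaction of LPS with JQ1 numbered 2 by total count, 3 on the TPM scale and 3 with only the groups compared, against 6, and 4 on the TPM scale against 7 for LPS + JQ1 against unstimulated cells. Called pathway genes numbered 2 for IL-10 during LPS by total count, TPM and only the groups compared, against 4. They numbered 9 for the JQ1 interaction on the TPM scale against 5, and 1 for the IL-10 interaction by total count and TPM against 0. Leaving out 1 library gave, for called members, 5 to 8 with LPS, 3 to 5 with JQ1, 1 to 3 with IL-10, 4 to 5 for JQ1 during LPS, 1 to 2 for IL-10 during LPS, 6 to 6 for LPS + JQ1 against LPS + IL-10, 6 to 7 for LPS + JQ1 against unstimulated cells, 2 to 5 for the JQ1 interaction and 0 to 1 for the IL-10 interaction. For pathway genes these were 9 to 11, 7 to 8, 1 to 1, 12 to 12, 2 to 4, 11 to 13, 8 to 10, 5 to 7 and 0 to 1. With the replicate block, C1qa with LPS (0.31) and JQ1 (0.35), C1qc with IL-10 (0.34) and C3 for LPS + JQ1 against LPS + IL-10 (1.37) passed, and Cfb, which then received a p, passed with LPS (5.56), JQ1 (-3.36), JQ1 during LPS (-5.53) and LPS + JQ1 against LPS + IL-10 (-6.67). C4b with IL-10 (1.75) then had no adjusted p, and the block changed no other call of the 9 genes. The cause was not tested. Low counts limit C4b, Cfb at rest and C1rl. CPM divided by effective length kept the TPM order of the 9 genes in every group.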
